A study of Mus musculus with 6 samples.

Results

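The 4 C/EBP genes Cebpa, Cebpb, Cebpd and Cebpg and the 4 forkhead genes Foxa1, Foxa2, Foxa3 and Foxq1 were compared in liver RNA of alkaline sphingomyelinase knockout and wildtype mice. These 8 genes were taken by symbol from the deposited table of 23415 genes, and all 8 were found and tested there. The knockout group held 3 libraries (animals 82, 84 and 85) and the wildtype group 3 (animals 81, 83 and 90), read from the first letter of each library name. Both groups are of strain C57BL/6. The labels used here give no age, sex, allele, diet or time of day. The tissue label is liver, while the series' design text names intestine. The deposited table holds 1 pooled value per group, so no spread between mice can be shown and the depth of each library is unknown.

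C/EBP proteins bind DNA as pairs through a basic region and a leucine zipper, and any member can pair with another. C/EBP-alpha, from Cebpa, supports the metabolic genes of the resting hepatocyte. C/EBP-beta and C/EBP-delta, from Cebpb and Cebpd, act on acute phase genes when interleukin signals reach the liver, and C/EBP-gamma, from Cebpg, lacks an activation domain and acts through its partners. Forkhead proteins bind DNA through the forkhead domain. Foxa1, Foxa2 and Foxa3 encode the FOXA factors, which open chromatin at liver genes during development and in the adult. Foxq1 encodes a more distant forkhead factor known from hair and stomach biology.

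Foxq1 was the member that rose, and it stood at 33.9 FPKM in knockout livers and 10.005 FPKM in wildtype livers. FPKM, the unit in which the deposited values were read, is fragments scaled for transcript length and library depth, so levels of different genes are per length. The fold was 3.39, a log2 ratio of 1.76 ± 0.26 (SE), with q = 9.23e-09 in the authors' deposited table. All ratios here are knockout over wildtype, and the SE is the one implied by the authors' z statistic. The words rose and fell are kept for genes with q under 0.05 in the authors' deposited table. By that rule 1 of the 8 members rose, 0 fell and 7 did not pass. Over all 11515 tested genes, 124 passed (1.08%), of which 66 were higher (0.573%) and 58 lower (0.504%) in the knockout group. Scaled to the same summed FPKM, the split of all calls was 49 higher and 140 lower. That scaling moved every log2 ratio down by the same amount, to a median over tested genes of -0.20 from -0.0012. Foxq1 was then at 1.57. The sums behind that scaling were 646306 FPKM for knockout livers and 564749 FPKM for wildtype livers. They hold no value for 2 genes, Alb among them, listed at 0 in both groups with a mark for too many fragments. The acute phase genes listed below made up 72486 and 13871 FPKM of these sums. Saa2 alone stood at 17481 against 86.2 FPKM and Saa1 at 14989 against 169 FPKM, knockout first. How far the split under that scaling depends on these abundant genes was not tested.

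**Figure D1:**
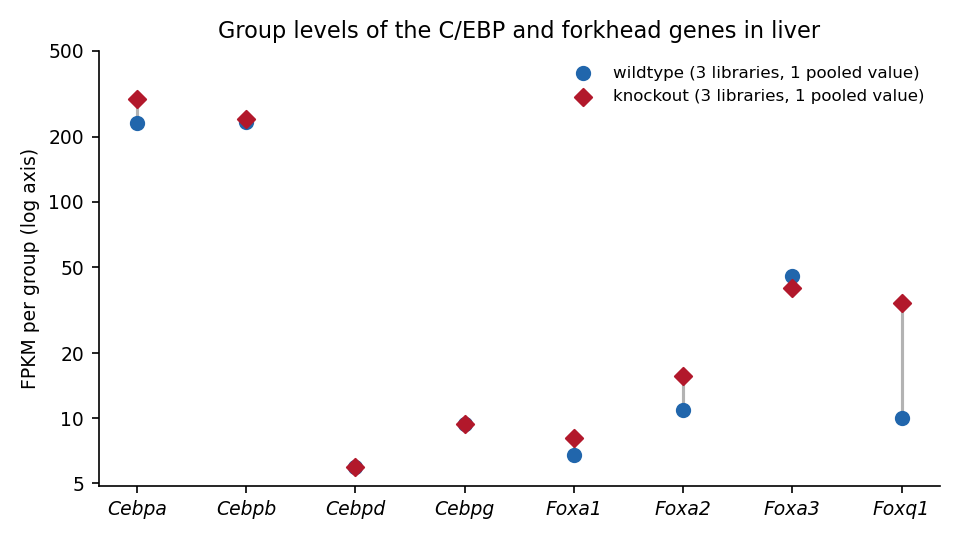
FPKM of the 8 genes on a log axis, with 1 pooled value for the wildtype group (circles) and 1 for the knockout group (diamonds), joined by a line. Foxq1 has the longest line, from 10.005 to 33.9 FPKM, while the symbols of Cebpd and Cebpg coincide.

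The coding stretch over which Foxq1 can be aligned without gaps to Foxa3, the forkhead member with the highest level, encodes part of the forkhead domain. It is shown because reads of 50 nt from a shared domain could in principle be assigned to the wrong family member. The stretch of 199 bases was read from the GENCODE M21 transcripts (GRCm38, the assembly also called mm10) and lies at chr13:31559257-31559455 (plus strand) for Foxq1 and chr7:19014649-19014847 (minus strand) for Foxa3. Capitals mark bases that are the same in both genes, and each is written 5′ to 3′ on its own coding strand.
Foxq1: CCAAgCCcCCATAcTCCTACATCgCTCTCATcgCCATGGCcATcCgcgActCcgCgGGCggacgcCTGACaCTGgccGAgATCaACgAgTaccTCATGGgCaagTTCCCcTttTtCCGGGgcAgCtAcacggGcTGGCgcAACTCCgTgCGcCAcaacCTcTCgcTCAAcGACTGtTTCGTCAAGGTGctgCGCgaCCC
Foxa3: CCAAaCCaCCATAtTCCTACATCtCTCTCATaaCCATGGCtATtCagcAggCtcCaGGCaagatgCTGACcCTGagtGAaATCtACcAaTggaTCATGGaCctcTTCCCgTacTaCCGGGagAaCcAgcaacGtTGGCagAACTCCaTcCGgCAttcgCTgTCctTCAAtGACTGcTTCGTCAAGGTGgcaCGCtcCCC
Of the 199 positions, 129 (64.8%) were the same, and the longest unbroken match was 12 bases. No run of 50 bases in the annotated transcripts of any of the 8 members occurred in another member, on either strand, so an exact read of that length separates them.

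Foxq1 does share sequence with a gene on the other strand. In the deposited table Foxq1 spans chromosome 13 from 31558170 to 31560974 (mm10), a span of 2805 bases. GENCODE M21 places A530084C06Rik on the opposite strand at 31556134 to 31559333, and its exon covers 1164 of these 2805 bases (41.5%). In GENCODE M21 the Foxq1 exon itself begins further upstream and is 4843 bases long, and over that longer model 3200 bases (66.1%) are shared. A530084C06Rik itself was not found in the deposited table under this or an older symbol, so it has no value here. Whether the library kit marked strand is not stated in the labels. If it did not, reads of the 2 genes cannot be told apart over the shared bases. The part of A530084C06Rik in the Foxq1 value was not tested. The coding part of Foxq1, 1200 bases, begins 747 bases into the span.

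**Figure D2:**
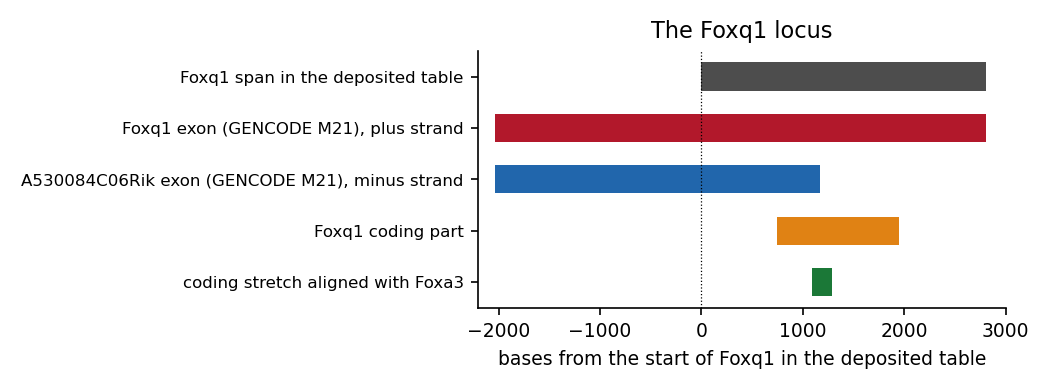
Features of the Foxq1 locus as distance in bases from the first base of Foxq1 in the deposited table, drawn to scale. The exon of A530084C06Rik on the minus strand reaches 1163 bases past that start, over the first part of the Foxq1 coding sequence, and the remaining bases of the Foxq1 span are not covered by it.

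The Foxq1 ratio ranked 53rd from the top among 11456 tested genes with a finite ratio, and its z of 6.73 ranked 21st in size. Its 95% interval on the log2 scale, from the authors' error, ran from 1.25 to 2.28, which is 2.38-fold to 4.84-fold. The intervals of the other 7 members all ended below it, the highest at 1.00 for Foxa2. Differences between members in their ratios were not tested. Foxq1 is also on the authors' short list of 95 differential genes, each of which passed q and had an absolute log2 ratio of at least 1.01. It is the only 1 of the 8 members on that list. The 3 tested genes nearest to Foxq1 by both group values, over 2 values only, were Junb, Mir1901 and Irf1. Junb, an AP-1 subunit, lay nearest at 36.3 FPKM in knockout livers and 11.1 FPKM in wildtype livers. Mir1901 has a ratio error of 5.43 and Irf1 had q = 0.0990 in the authors' deposited table.

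Foxa1, Foxa2 and Foxa3 did not pass. Foxa2, which in adult liver is tied to lipid and bile acid genes, was at 15.6 FPKM in knockout livers and 10.9 FPKM in wildtype livers. Its log2 ratio was 0.52 ± 0.24 (SE), with an unadjusted p of 0.0339 and q = 0.791 in the authors' deposited table. Its interval, 0.04 to 1.00, lay above 0 before adjustment for the number of genes tested. Scaled to the same summed FPKM, the Foxa2 ratio was 0.32 ± 0.24 with an unadjusted p of 0.185, and its interval then included 0. In all, 609 tested genes (5.29%) had an unadjusted p under 0.05. Foxa1, the closest relative of Foxa2, was at 8.14 FPKM in knockout livers and 6.79 FPKM in wildtype livers (0.26 ± 0.25). Foxa3, the FOXA gene with the highest transcript level here, was at 40.1 FPKM in knockout livers and 45.6 FPKM in wildtype livers. Its log2 ratio of -0.19 ± 0.22 was the only 1 of the 8 below 0.

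The summed FPKM of the 3 FOXA genes was 63.8 in knockout livers and 63.3 in wildtype livers. Foxa3 held 62.8% of that sum in knockout livers and 72.1% in wildtype livers, and Foxa2 held 24.5% and 17.2%. With Foxq1 added, the 4 forkhead genes summed to 97.8 and 73.3 FPKM. Foxq1 was 34.7% of this larger sum in knockout livers and 13.6% in wildtype livers. Its level was 0.219 times that of Foxa3 in the wildtype group and 0.847 times in the knockout group. It was below Foxa2 in the wildtype group, at 0.918 times its level, and above it in the knockout group, at 2.17 times. These are ratios of single group values with no error over mice.

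The 2 most abundant C/EBP genes, Cebpa and Cebpb, are shown over the stretch that encodes the basic region and most of the leucine zipper, because their proteins can pair through it. The stretch of 229 bases, from the same transcripts, lies at chr7:35120234-35120462 for Cebpa and chr2:167689654-167689882 for Cebpb, both on the plus strand. Capitals mark bases that are the same in both.
Cebpa: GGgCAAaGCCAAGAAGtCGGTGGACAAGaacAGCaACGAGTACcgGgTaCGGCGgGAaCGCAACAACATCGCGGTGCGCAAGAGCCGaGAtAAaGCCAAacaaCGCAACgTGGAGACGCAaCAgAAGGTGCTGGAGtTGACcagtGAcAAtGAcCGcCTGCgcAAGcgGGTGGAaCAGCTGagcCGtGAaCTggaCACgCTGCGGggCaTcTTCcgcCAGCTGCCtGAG
Cebpb: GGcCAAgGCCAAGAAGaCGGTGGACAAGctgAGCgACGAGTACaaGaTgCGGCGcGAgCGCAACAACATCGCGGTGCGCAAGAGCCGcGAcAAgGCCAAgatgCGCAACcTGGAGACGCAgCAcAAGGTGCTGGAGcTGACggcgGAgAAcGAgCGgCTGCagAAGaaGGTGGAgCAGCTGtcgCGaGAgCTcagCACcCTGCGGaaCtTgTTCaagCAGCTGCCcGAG
Of these positions 175 (76.4%) were the same, with a longest unbroken match of 29 bases.

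Cebpa and Cebpb were the most abundant members in both groups. Cebpa was at 298.7 FPKM in knockout livers and 232 FPKM in wildtype livers, a log2 ratio of 0.36 ± 0.27 (SE). Its q was printed as 0.9998 in the authors' deposited table. Cebpb, the member best known for induction in the acute phase, was at 241 FPKM in knockout livers and 233 FPKM in wildtype livers (0.05 ± 0.24). The interval of the Cebpb ratio on the fold scale was 0.743 to 1.44, so a rise of the size of Foxq1 lies outside it. Cebpb to Cebpa stood at 0.807 in knockout livers and 1.00 in wildtype livers.

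Cebpd and Cebpg were low, and their group values were nearly the same. Cebpd, also an acute phase factor, was at 5.97 FPKM in knockout livers and 5.93 FPKM in wildtype livers (0.01 ± 0.29). Its interval on the fold scale was 0.676 to 1.498. Cebpg was at 9.44 FPKM in knockout livers and 9.41 FPKM in wildtype livers (0.00 ± 0.23, or 0.0047 unrounded), with an interval of 0.734 to 1.37. The 4 C/EBP genes summed to 555 FPKM in knockout livers and 481 FPKM in wildtype livers. Cebpd held 1.08% and 1.23% of that sum and Cebpg 1.70% and 1.96%. Cebpb overlaps Tmem189 in GENCODE M21 on the opposite strand over 312 of its 1504 exonic bases (20.7%), whereas in the deposited table the spans of Cebpb and Tmem189 do not overlap and lie 27.4 kb apart. Cebpd overlaps Spidr over 562 of 3746 exonic bases (15.0%). Spidr is listed in the deposited table as 2310008H04Rik, with the same merged span as Cebpd, chromosome 16 from 15887286 to 16146833, and stood at 1.26 against 0.971 FPKM. How reads from shared bases were assigned is not stated in the labels.

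For the 7 members that did not pass, the size of a ratio that would have passed can be read from their errors. The smallest absolute z among passing genes was 3.46. At their errors, log2 ratios of at least 0.77 for Foxa3 to 1.02 for Cebpd would have been needed, or 1.70-fold to 2.02-fold. Smaller observed ratios would not have passed at these errors, which sets no limit on the true changes. The median log2 ratio of the 8 members was 0.15, beside -0.0012 over all tested genes, and 7 of 8 ratios were above 0. Those of Cebpb, Cebpd and Cebpg were below 0 under scaling to the same summed FPKM.

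**Figure D3:**
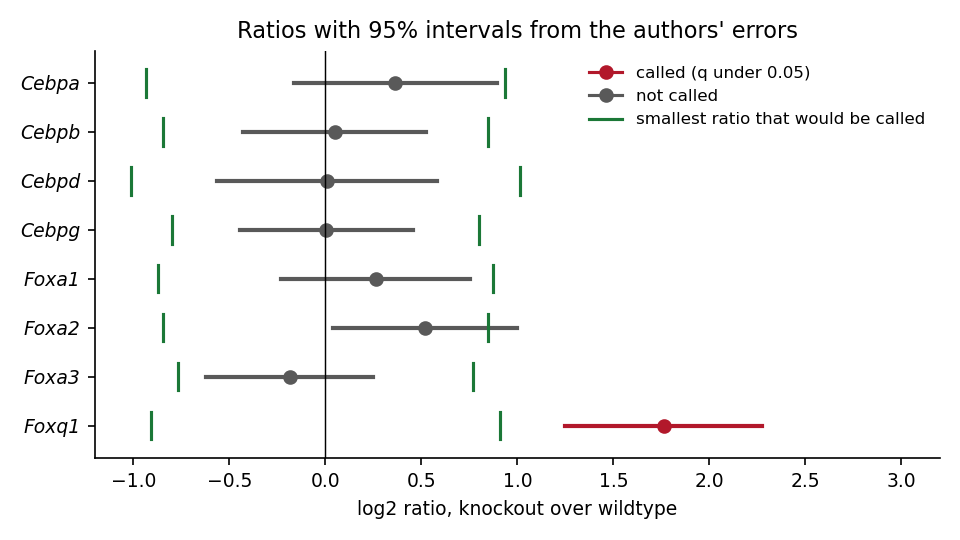
Log2 ratios of knockout over wildtype for the 8 genes (points) with 95% intervals from the authors' errors (bars), and the ratio needed to pass at each gene's error (green ticks). The Foxq1 interval, 1.25 to 2.28, lies to the right of its tick, and the points of the other 7 lie inside theirs.

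Ranked by level in the knockout group, the order was Cebpa, Cebpb, Foxa3, Foxq1, Foxa2, Cebpg, Foxa1 and Cebpd. In the wildtype group it was Cebpb, Cebpa, Foxa3, Foxa2, Foxq1, Cebpg, Foxa1 and Cebpd. With 1 value per group, it cannot be said which neighbours in either order differ beyond the spread between mice. Cebpa and Cebpb exceeded 97.1% and 96.5% of tested genes in the knockout group. Foxq1 exceeded 83.2% of tested genes in knockout livers and 60.9% in wildtype livers. Cebpd, the lowest, exceeded 48.2% and 47.7%.

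Among all 44 forkhead genes listed, 18 were tested and Foxq1 was the 1 that passed. It ranked 2nd by level in the knockout group, behind Foxa3, and 3rd in the wildtype group. Of the 40 forkhead genes other than the members, 14 were tested, 0 passed and 0 had an unadjusted p under 0.05, with a median log2 ratio of -0.10. The highest of these were Foxo4 at 10.4 against 9.17 FPKM (knockout first, here and below), Foxo3 at 8.24 against 9.62 FPKM, and Foxp4 at 9.51 against 8.03 FPKM. The smallest p among them was that of Foxo1, the insulin-regulated activator of gluconeogenesis, at 6.69 against 8.32 FPKM (-0.31 ± 0.23). In this list 12 genes were at 0 in both groups.

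Of 11 other C/EBP genes and bZIP partners, all tested, 0 passed and 2 had an unadjusted p under 0.05. The median log2 ratio was -0.10. Atf5, a stress-response factor that can bind C/EBP sites, led them in level and in p, at 212 against 114 FPKM (0.89 ± 0.28). Its q in the authors' deposited table was 0.0946. Dbp, a clock output factor, was at 70.6 against 64.8 FPKM, and Atf4, an amino acid stress factor, at 55.5 against 52.2 FPKM. Ddit3, which blocks C/EBP binding, and Cebpe, a factor of granulocyte precursors, were chosen after their values were seen. Ddit3 was at 8.87 against 17.6 FPKM (-0.99 ± 0.65) and Cebpe at 8.95 against 6.50 FPKM (0.46 ± 0.30).

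Of 23 other liver-enriched factors 21 were tested, 0 passed and 2 had an unadjusted p under 0.05, with a median log2 ratio of -0.02. Hnf4a, a nuclear receptor that maintains hepatocyte identity, was at 142 against 152 FPKM. Creb3l3, a membrane-bound factor of lipid and acute phase genes, was at 142.6 against 144.7 FPKM, and Klf15 at 92.1 against 103.8 FPKM. Hhex, a homeobox factor of liver development, had the smallest p, at 83.2 against 57.3 FPKM (0.54 ± 0.23). Its q in the authors' deposited table was 0.572.

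**Figure D4:**
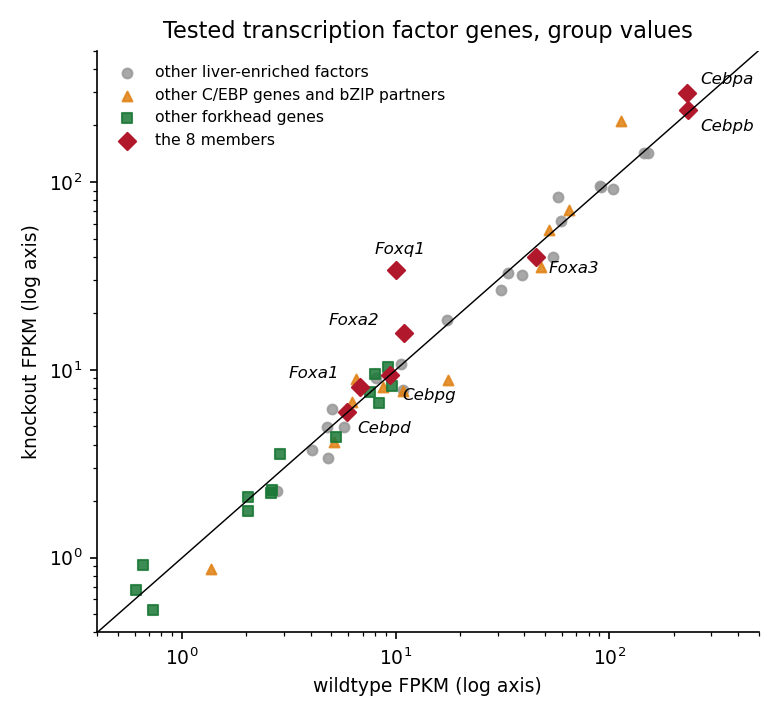
Knockout against wildtype FPKM (log axes) of the tested transcription factor genes, with the 8 members as diamonds and the line of equal values. Foxq1 is the labelled gene farthest from the line, at 33.9 against 10.005 FPKM, while the other members lie nearer to it.

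The signals that act on C/EBP-beta and C/EBP-delta in hepatocytes come through interleukin and Toll-like receptors. The list held 22 genes for cytokines, their receptors and signal carriers, together with a feedback inhibitor. Of these 16 were tested, 1 rose, 0 fell and 15 did not pass, with a median log2 ratio of 0.05. An unadjusted p under 0.05 was found for 3, namely Socs3 and, with ratios below 0, Il6ra (-0.62 ± 0.23) and Tnfrsf1b (-0.73 ± 0.23). Il6, Tnf, Osm, Lif, Osmr and Tlr4 were not tested. Socs3, the feedback inhibitor that STAT3 induces, rose from 2.55 FPKM in the wildtype group to 13.0 FPKM in the knockout group (2.35 ± 0.29, q = 5.90e-13 in the authors' deposited table). Of 10 inhibitors and cofactors of C/EBP proteins 9 were tested and 0 passed, with 0 at an unadjusted p under 0.05 and a median of -0.06. Trib1, which directs C/EBP-alpha to degradation, had the smallest p, at 10.4 against 14.0 FPKM (-0.43 ± 0.23).

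Genes listed as under C/EBP or FOXA control were read by class. That control was not tested here for any of them. Of 22 tested acute phase genes with C/EBP control 11 rose, 0 fell and 11 did not pass, with a median log2 ratio of 1.49. All 22 ratios were above 0, and 19 genes had an unadjusted p under 0.05. Those that rose were Saa1, Saa2, Saa3, Orm1, Orm2, Orm3, Lcn2, Apcs, Itih3, Lbp and Serpina3n. Their ratios ran from 1.32 for Serpina3n to 7.66 for Saa2. In these same livers Cebpb and Cebpd were at 0.05 ± 0.24 and 0.01 ± 0.29. Protein levels, isoforms and DNA binding of the factors were not measured here.

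Of 10 tested metabolic genes with C/EBP-alpha control 0 passed, 3 had an unadjusted p under 0.05 and 9 ratios were below 0, with a median of -0.37. G6pc, glucose-6-phosphatase, had the smallest p, at 173 against 308 FPKM (-0.83 ± 0.27). Its q in the authors' deposited table was 0.137. Of 14 tested hepatocyte genes with FOXA control 0 passed, 1 had an unadjusted p under 0.05 and 11 ratios were below 0, with a median of -0.18. G6pc is on this list too, and again had the smallest p. Alb, on both lists, is listed at 0 in both groups with a mark for too many fragments and has no value here. All these lists were chosen with earlier results of these data known, and their counts are descriptions.

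**Figure D5:**
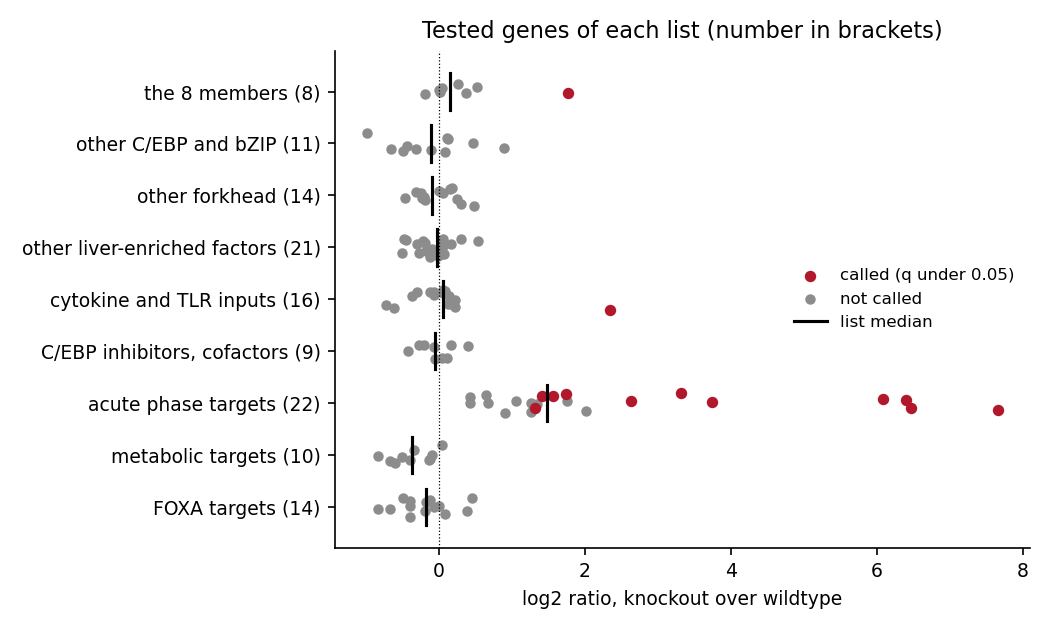
Log2 ratio of knockout over wildtype for each tested gene of the members and of the 8 lists, with called genes in red and list medians as vertical bars. Acute phase targets spread to the right with a median of 1.49, the members have 1 red point, Foxq1 at 1.76, and the transcription factor lists centre near 0.

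The tissue and its other cells were checked by marker genes. Of 10 hepatocyte markers, all tested, 0 passed, and their median was 7100 FPKM in knockout livers and 5502 FPKM in wildtype livers. Their median log2 ratio was -0.02, with 5 ratios above 0 and 5 below. The 11 markers of intestinal epithelium, of which 4 were tested and 0 passed, had medians of 0.233 and 0.148 FPKM and sums of 94.5 and 80.6 FPKM. Nearly all of those sums came from Fabp2, at 42.9 against 54.7 FPKM, and Tff3, at 48.8 against 23.9 FPKM. The Tff3 ratio was 1.03 ± 0.31, with an unadjusted p of 0.000982 and q = 0.0775 in the authors' deposited table. The next highest was Lgr5, at 1.00 against 0.884 FPKM. Enpp7, which encodes alkaline sphingomyelinase, was at 0.141 FPKM in knockout livers and 0.0541 FPKM in wildtype livers and was not tested, so it does not check the genotype. The neutrophil and monocyte list had 9 tested markers, of which Ltf, Ngp, S100a8 and S100a9 rose (4) and 0 fell. The summed level of that list was 109.6 FPKM in knockout livers and 6.31 FPKM in wildtype livers. Most of both sums came from S100a8, at 38.4 against 1.89 FPKM, and S100a9, at 46.0 against 2.86 FPKM. All 9 tested ratios were above 0, with Csf3r at 1.09 against 0.431 FPKM. Of 10 Kupffer cell and macrophage markers, all tested, 2 rose (Marco and C1qa) and 8 did not pass, with sums of 513 and 321 FPKM. All 10 ratios were above 0, with a median of 0.62, and 8 markers had an unadjusted p under 0.05. Of 6 tested cholangiocyte markers 1 rose, Spp1, and 5 did not pass. Spp1 alone, at 142 against 62.6 FPKM, made up most of that list's sums of 156 and 75.2 FPKM, while Krt19 was at 3.26 against 3.04 FPKM and Sox9 at 1.47 against 1.40 FPKM. Sinusoidal endothelium and stellate cell lists had 7 tested markers each and 0 that passed, with medians of -0.23 and -0.24. Of the markers found in the table, 0 in any list were at 0 in both groups. In bulk tissue, more cells of a type and more RNA per cell cannot be told apart. Their part in the Foxq1 difference was not tested.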

How the data were processed

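Liver RNA of 6 libraries, 3 per group, was read as 50-nt single ends. Per the submitters' processing notes, Bowtie2 and build mm10 were used; for the program behind the tables, its version and annotation, the sources used here give nothing. The authors deposited 1 value per group and gene. No unit is named per the file headers; since the columns are laid out as in a Cuffdiff table, values were taken as the authors' FPKM. The authors' deposited p-value and q-value were used as given; q equals a Benjamini-Hochberg adjustment over the 11515 tested genes (largest difference 1.99e-06). The deposited log2 ratio, wildtype over knockout per the file headers, was turned round. The deposited test statistic is a score read as a normal z, and SE is ratio divided by z.

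No fit of values per mouse was possible, so p-values reflect the authors' model only. The members and lists were chosen with earlier results of these data known. Named by rule were all members, called members of each list, the smallest p in a list without calls, and in the 3 factor lists the 3 highest means. Other genes, among them Il6ra, Tnfrsf1b, Fabp2, Lgr5, Csf3r, Krt19 and Sox9, were named outside that rule with their values known. Older symbols were matched through the RefSeq gene table of GRCm38.p6. The recomputation of q was tested on simulated data. Gene spans were taken from the deposited table (mm10), counting from 1. Alternatives changed scaling, low-value filters, adjustment and pseudocount. The table held 0 columns of other samples. Promoter sequences were not used here, and some items are not reported here. Python 3.11.15, scipy 1.17.1 and Biopython 1.88 were used.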

Additional observations from a re-analysis of the deposited data

How the results depend on the processing

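Foxq1 passed under all 7 alternatives that give a test (scaling to the same sum, quantile normalization, median ratio set to 0, means of at least 1 or 5 FPKM, Benjamini-Yekutieli and Bonferroni adjustment), with adjusted p from 5.45e-09 to 8.44e-07. With these and pseudocounts of 1 and 0.5 its ratio lay between 1.57 and 1.76. No other member passed under any of the 7. The 3 changes of scaling shift the ratios and keep the authors' error of each gene, and the filters and adjustments keep both, so none of the 7 re-estimates that error. Scaled to the same sum, the ratios of Cebpb, Cebpd and Cebpg turned to -0.15, -0.19 and -0.19. The sums used there include the acute phase genes, which summed to 72486 FPKM in knockout livers and 13871 FPKM in wildtype livers. On that list 11 of 22 tested genes rose and 11 did not pass. After quantile normalization the ratios of Cebpb and Cebpg turned to -0.069 and -0.0021. Over all genes the count of 124 became 189 when scaled to the same sum, 72 after Benjamini-Yekutieli and 55 after Bonferroni adjustment, which are stricter by construction. No library could be left out, because each group has 1 pooled value. No paired analysis was possible because the groups share no animal number and the table holds no value per mouse. Depth per library is unknown.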

Other observations

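The neighbours of the members on their chromosomes were read from the deposited table, as values chosen by distance alone. Within 500 kb of Foxq1 the table lists 5 other genes, of which 1 was tested and 0 passed. The forkhead genes Foxf2 and Foxc1, 64.8 and 246 kb away, stood at 0 in both groups and at 0.0518 against 0.0464 FPKM. Gmds, an enzyme of fucose synthesis 259 kb away, was at 2.55 against 1.82 FPKM (0.49 ± 0.41). Cebpa and Cebpg lie 62.7 kb apart on chromosome 7 with Pepd, a dipeptidase, beyond Cebpg at 1.71 kb. Pepd was at 33.1 against 32.4 FPKM, and 0 of the 10 tested genes within 500 kb of Cebpa passed.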
